A study of Mus musculus with 9 samples.

Results

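The genes described here encode the proteasome of mouse liver. They are the protein-coding rows of the deposited count table whose mouse symbol begins with Psma, Psmb, Psmc, Psmd, Psme, Psmf or Psmg and a digit, without Psmb8, Psmb9 and Psmb10. The rule takes 47 of the 21703 rows of the table. RNA was sequenced from 9 liver samples, called livers below, in 3 groups of 3. They came from mice of the strain C57BL/6J, all 4 weeks old. All mice carried the allele R26-M2-rtTA, which encodes the doxycycline-dependent activator. The c-Myc livers came from mice that also had the transgene Col-TetOP-c-Myc-ires-mCherry, and the Mycl livers from mice that had Col-TetOP-Mycl-ires-mCherry in its place. Both groups were taken 48 h after an intraperitoneal injection of doxycycline (dox; 0.2 ml at 2.0 mg/ml). The no dox livers came from untreated mice of the inducible Mycl genotype. All 9 livers therefore come from mice that carry a doxycycline-responsive Myc family transgene followed by an mCherry reporter. The activator stands at the Rosa26 locus, which is active in most tissues, and not behind a hepatocyte promoter. No untreated c-Myc mice and no mice given doxycycline without a transgene were analysed here, so the drug and either transgene, and the c-Myc line and c-Myc itself, cannot be told apart. No label ties a liver to a named animal, so p-values measure only the spread between these samples, which may be technical.

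The proteasome degrades proteins that carry ubiquitin. Its 20S core particle is a barrel made of alpha subunits in the outer rings and beta subunits in the inner rings, and the beta subunits Psmb5, Psmb6 and Psmb7 cut the substrate. The 19S regulatory particle caps the barrel, with a base of ATPases that unfold the substrate and a lid that removes ubiquitin. Other caps (the PA28 and PA200 activators) open the barrel without ATP, and dedicated chaperones assemble its parts. In liver, as in other tissues, the factor Nfe2l1 (NRF1) raises the transcription of the subunit genes together when proteasome activity falls. c-Myc and L-Myc, the protein made from Mycl, pair with Max to bind E-box sequences such as CACGTG.

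By role, the 47 genes are 8 alpha subunits (Psma1 to Psma8), 8 beta subunits (Psmb1 to Psmb7 and Psmb11), 6 base ATPases (Psmc1 to Psmc6) and 11 non-ATPase subunits of the 19S particle. They include 3 base assembly chaperones (Psmd5, Psmd9 and Psmd10), 4 chaperones of 20S assembly (Psmg1 to Psmg4), 5 activator genes (Psme1, Psme2, Psme2b, Psme3 and Psme4) and the inhibitor gene Psmf1. The last of the 47 is Psmc3ip, which has the symbol pattern only: its product takes part in meiotic recombination and is no part of the proteasome. Psmb11, the beta subunit of the thymus, had 0 counts in all 9 livers and was not tested, which left 46 tested genes. Psma8, the alpha subunit of the testis, had 168 counts over the 9 livers. The subunits that every proteasome holds, without Psma8 and Psmb11, number 31 (14 of the 20S and 17 of the 19S particle) and are called the core subunits below.

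Total counts ran from 14088780 to 16482480 in c-Myc livers, 11013412 to 18887413 in Mycl livers and 14043323 to 20079232 in no dox livers. Levels are given in CPM, counts per 1e+06 reads after scaling of the library sizes. The reporter IRES-mCherry averaged 193 ± 105.5 CPM in c-Myc livers, 155.9 ± 109.1 CPM in Mycl livers and 0.576 ± 0.449 CPM in no dox livers (SD, n = 3 each). Myc averaged 188.6 ± 96.6 CPM in c-Myc livers against 7.91 ± 4.37 CPM in no dox livers, and Mycl averaged 137.6 ± 92.5 CPM in Mycl livers against 11.3 ± 0.397 CPM in no dox livers. The transgenes matched the labels in every group mean. A library stood apart: Mycl replicate 1 had relatively more reads of genes with short transcripts, with a median log2 difference from the no dox mean of 1.17 over 749 genes of under 1000 nt, while the medians of the other 8 livers in that class were within 0.114 of 0. Of the 31 core subunit genes, 5 are in that class and 10 in the next, of 1000 to under 1500 nt, so the members' counts, medians and interferon calls for Mycl are also given without this liver. The livers are whole tissue, in which fewer cells of a type and less RNA per cell cannot be told apart. Summed hepatocyte markers (Alb, Ttr, Apoa1, Cps1 and Serpina1a) were 55670 to 92050 CPM in c-Myc livers, 70590 to 117700 CPM in Mycl livers and 112200 to 126600 CPM in no dox livers.

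The promoters of 4 genes are shown as examples of each kind of result and motif: the activator gene Psme3 and the assembly chaperone gene Psmg1, which were called higher in c-Myc livers, the catalytic subunit gene Psmb5, whose c-Myc values lay above all controls without a call, and Psmd9, a base assembly chaperone gene that holds CACGTG and was not called. Each run gives bases 250 to 31 before the RefSeq transcription start on GRCm38.p6, 5′ to 3′ on the gene's strand, at chr11:101315963-101316182 (plus strand) for Psme3, chr16:95990991-95991210 (minus strand) for Psmg1, chr14:54618026-54618245 (minus strand) for Psmb5 and chr5:123227940-123228159 (plus strand) for Psmd9. Capitals mark CACGTG, the E-box, and TGACNNNGC, the core of the antioxidant response element that NRF1 binds. Psmd9 also holds a TGACNNNGC 31 to 23 bases before the start, which runs past the printed bases and is not marked.
Psme3: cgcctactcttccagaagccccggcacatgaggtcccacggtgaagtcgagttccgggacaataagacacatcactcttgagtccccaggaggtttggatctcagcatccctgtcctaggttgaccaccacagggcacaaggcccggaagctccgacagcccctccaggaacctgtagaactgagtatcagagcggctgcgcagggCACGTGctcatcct
Psmg1: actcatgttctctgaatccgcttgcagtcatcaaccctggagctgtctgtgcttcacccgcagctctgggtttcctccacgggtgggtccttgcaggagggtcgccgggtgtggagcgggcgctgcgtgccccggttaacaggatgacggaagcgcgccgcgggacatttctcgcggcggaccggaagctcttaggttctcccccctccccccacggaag
Psmb5: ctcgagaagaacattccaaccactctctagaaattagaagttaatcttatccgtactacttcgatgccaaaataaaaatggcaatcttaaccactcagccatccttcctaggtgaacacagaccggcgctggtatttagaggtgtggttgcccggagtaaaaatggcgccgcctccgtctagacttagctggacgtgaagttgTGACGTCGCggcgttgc
Psmd9: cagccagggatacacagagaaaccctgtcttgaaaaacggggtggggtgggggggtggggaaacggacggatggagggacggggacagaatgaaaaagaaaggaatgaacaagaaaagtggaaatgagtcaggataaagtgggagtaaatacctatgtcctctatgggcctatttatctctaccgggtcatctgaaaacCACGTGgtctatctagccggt
RefSeq windows from 250 bases before to 50 after the start were found for 39 of the 47 genes, with 42 windows. Both strands were searched. CACGTG was in windows of 3 genes (Psma4, Psmd9 and Psme3), which is 7.14% of the member windows against 7.15% of all 32851 windows. In Psme3 it lay 44 to 39 bases before the start, in Psmd9 51 to 46 and in Psma4 140 to 135. TGACNNNGC was in windows of 6 genes (Psmb5, Psmb6, Psmc6, Psmd9, Psmd12 and Psme4), or 14.3% of member windows against 12.4% of all, and in Psmb5 it lay 47 to 39 bases before the start. CCAAT, the box that NF-Y binds, was in windows of 14 genes, or 33.3% of member windows against 37.4% of all. The shares of members were thus close to those of all genes for each motif, no sites of different motifs overlapped, and Psmg1 held neither CACGTG nor TGACNNNGC. These are matches of letters, and no binding was measured here.

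Core subunit genes were among the well-expressed genes of the untreated liver. Per length of the main transcript (RPKM, CPM per kilobase), the 31 core genes ran from 21.7 to 114.6 in no dox livers, with a median of 51.0, against a median of 5.75 over all tested genes. The 14 genes of the 20S particle had a median RPKM of 63.9, with Psma2 the lowest and Psmb4 the highest. The 17 genes of the 19S particle had a median RPKM of 47.9, from 30.2 for Psmd7 to 74.7 for Psmd2, which encodes the scaffold that receives ubiquitin carriers. Among the activators, Psme1 and Psme2, the alpha and beta chains of the interferon-inducible PA28 cap, stood at 67.1 and 55.3 RPKM. Psme4 (PA200) stood at 38.8 and Psme3 (PA28 gamma, the cap of nuclear proteasomes) at 20.9 RPKM. The assembly chaperones of the 20S particle were lower, at 16.0 RPKM for Psmg1, 12.9 for Psmg2, 8.88 for Psmg3 and 6.88 for Psmg4, with 8.20 to 10.3 for the 3 base chaperones. Psme2b, a gene named as a copy of Psme2 whose reads may be split with it, stood at 2.36 RPKM and Psma8 at 0.494.

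**Figure D1:**
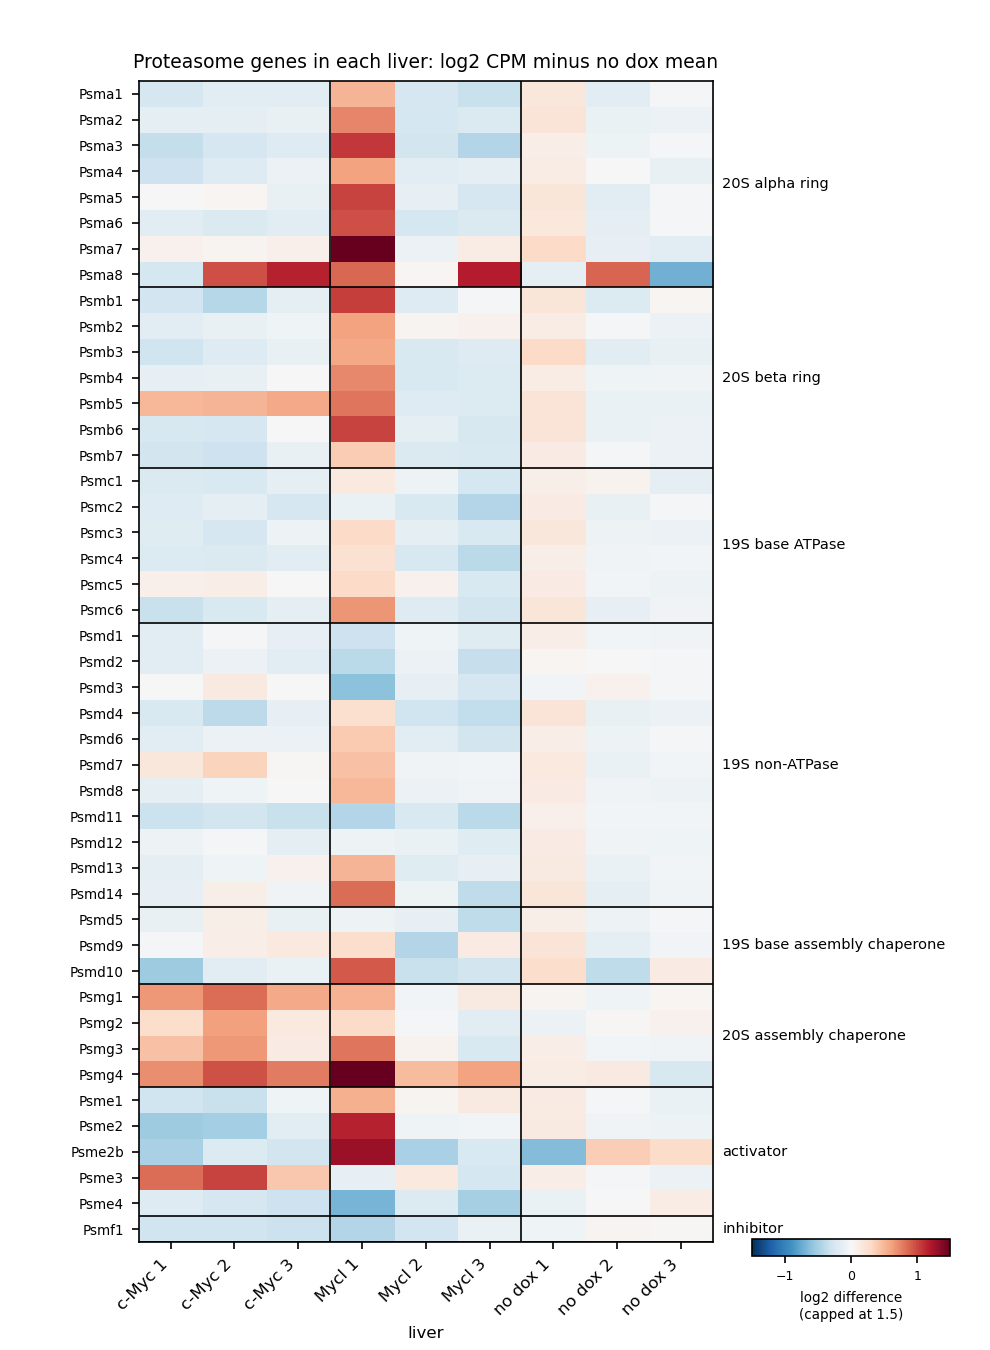
Log2 CPM of 45 tested proteasome genes (rows, grouped by role, without Psmc3ip) in each of the 9 livers (columns), minus the mean of the no dox livers; the colour scale is capped at 1.5 on either side. Psme3 and the Psmg genes stand out in the c-Myc columns, and most 20S genes in the column of Mycl replicate 1.

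In c-Myc livers an activator gene and an assembly chaperone gene of the proteasome rose, and no core subunit gene passed the test. Psme3 rose by 0.77 on the log2 scale and Psmg1 by 0.69. All 4 Psmg genes were higher in each c-Myc liver than in each no dox liver, with 1 of the 4 called; 22.6% of all tested genes were higher in this way. Of the 46 tested genes, 3 were called higher and 0 lower by edgeR's quasi-likelihood test at a Benjamini-Hochberg adjusted p under 0.05 over all 12651 tested genes, with Psmc3ip the third. Among all tested genes 11.8% were called higher and 8.88% lower in this comparison (20.7% in either direction), so the members' 3 of 46 is a smaller share than that of all genes. Over all tested genes these were 1490 higher and 1124 lower, and with library totals in place of TMM scaling 3181 higher and 337 lower. At an unadjusted p under 0.05, 3 were higher and 2 lower, with no share of all tested genes to set beside them. DESeq2 and limma-voom also called 3 higher and 0 lower. Over all tested genes DESeq2 called 1855 higher and 1279 lower, and limma-voom 1428 and 1164. Without Mycl replicate 1, which enters this comparison through the shared estimate of the spread, the scaling and the filter, 7 genes were called higher (Psmb5 and Psmg2 to Psmg4 in addition), beside 2402 of all tested genes, and without no dox replicate 2 or without c-Myc replicate 2 the count was 2, with Psmg1 lost.

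Psme3 had 99.6, 112.5 and 74.0 CPM in c-Myc livers, against 59.7, 55.1 and 52.6 CPM in no dox livers. All 3 c-Myc livers lay above all 3 controls, with replicate 3 the nearest to them. The mean was 95.4 ± 19.6 CPM in c-Myc livers and 55.8 ± 3.58 CPM in no dox livers (SD, n = 3 each), a log2 fold change of 0.77 (SE 0.17, 95% interval 0.39 to 1.16, edgeR adjusted p = 0.0123). The call held under every alternative run. PA28 gamma opens nuclear 20S proteasomes to substrates without ubiquitin, and Psme3 was the 1 activator gene of 5 to be called. Its exons overlap no other annotated gene.

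Psmg1, with Psmg2 its partner in a dimer that starts the alpha ring, had 26.3, 29.8 and 24.9 CPM in c-Myc livers, against 17.1, 15.9 and 17.0 CPM in no dox livers. The groups did not overlap, and the controls were close together. The log2 fold change was 0.69 (SE 0.16, 95% interval 0.33 to 1.05, edgeR adjusted p = 0.0149), and the adjusted p was 0.0537 without no dox replicate 2 and 0.0504 without c-Myc replicate 2. Psmg2 had 16.4, 21.0 and 15.1 CPM in c-Myc livers, against 12.9, 13.9 and 14.2 CPM in no dox livers. The c-Myc livers were all higher, but the nearest values of the groups differed by little, and the log2 fold change of 0.36 had an edgeR adjusted p of 0.163. Psmg3, which pairs with Psmg4 in the second assembly dimer, had 10.7, 12.4 and 8.52 CPM in c-Myc livers, against 8.37, 7.59 and 7.56 CPM in no dox livers (log2 fold change 0.43, edgeR adjusted p = 0.269). Psmg4 had 6.25, 7.47 and 6.59 CPM in c-Myc livers, against 4.11, 4.17 and 3.18 CPM in no dox livers, with no overlap (log2 fold change 0.82, edgeR adjusted p = 0.175). Among the 46 genes, 7 were higher in every c-Myc liver than in every no dox liver and 16 were lower, beside 22.6% and 28.1% of all tested genes. The 7 were the 4 Psmg genes, Psme3, Psmb5 and Psmc3ip, and 13 of the 16 were core subunits. The 3 base assembly chaperones overlapped the controls, among them Psmd10 (gankyrin) at 8.37, 10.8 and 11.3 CPM in c-Myc livers, against 14.6, 9.30 and 13.2 CPM in no dox livers.

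**Figure D2:**
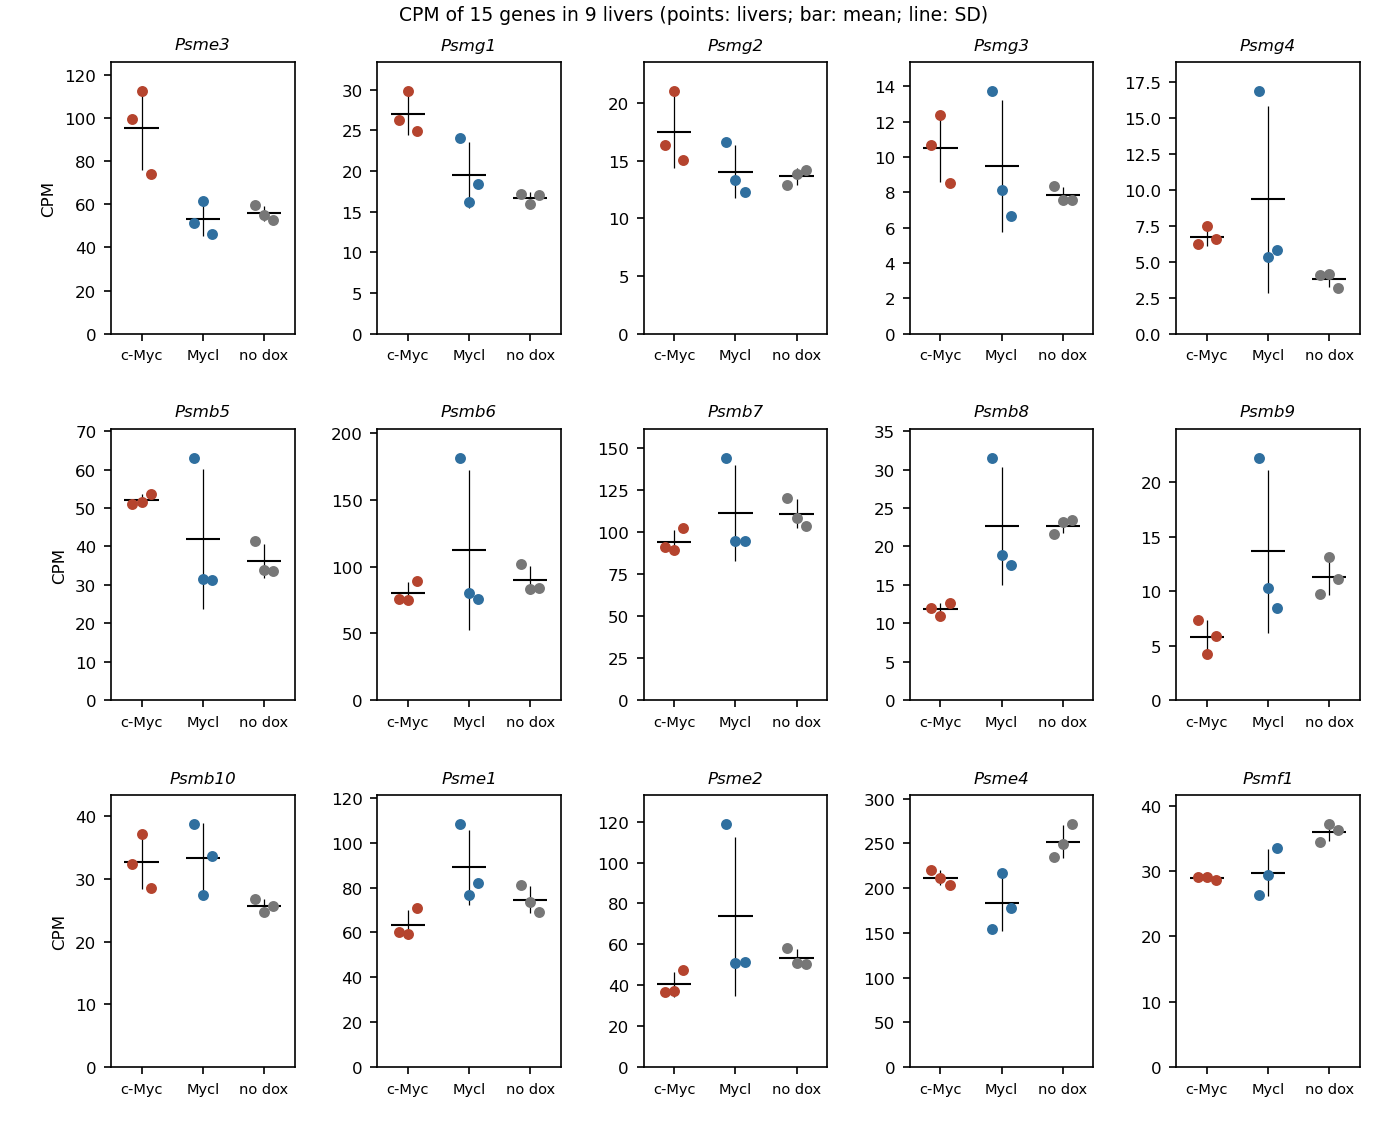
CPM of 12 members and of Psmb8, Psmb9 and Psmb10, which are no members, in each liver (points) of the c-Myc, Mycl and no dox groups, with the mean (bar) and SD (line); each axis starts at 0. The c-Myc points of Psme3 and Psmg1 lie above the controls, those of Psmb8 below them, and Mycl replicate 1 is the high blue point of several genes.

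The core subunits did not pass the test in c-Myc livers in either direction. Of 31 core genes, 0 were called by edgeR, DESeq2 or limma-voom, 1 was under an unadjusted p of 0.05 (Psmd11, a lid subunit), and 26 had a fitted fold change below 0, all of which were above 0 with library totals. The median log2 fold change was -0.14, with a range of -0.31 to 0.52, beside -0.05 over all tested genes. Without no dox replicate 1 the core median was -0.02, beside -0.0031 over all tested genes. For 30 of the 31 the 95% interval lay within a 2-fold change either way, and for 14 within 1.5-fold. The 6 ATPases, the motor of the base, ran from -0.24 to 0.06 on the log2 scale, and the 11 non-ATPase subunits from -0.31 to 0.18. Psmd11 had 116.2, 120.9 and 115.6 CPM in c-Myc livers, against 154.5, 142.1 and 141.6 CPM in no dox livers, with no overlap (log2 fold change -0.31, edgeR adjusted p = 0.0972). The 20S particle had a median log2 difference from the no dox mean of -0.21, -0.18 and -0.11 in the 3 c-Myc livers, where the no dox livers themselves stood at 0.18, -0.10 and -0.09. With library totals in place of TMM scaling, the median of all tested genes moved to 0.31 and that of the 46 members to 0.24, so the sign of the members' median rests on the scaling, and it lay below that of all genes with both.

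Psmb5 had the highest fold change of the core subunits in c-Myc livers, and was singled out after its values were seen. It encodes the subunit with chymotrypsin-like activity, the target of proteasome inhibitor drugs. It had 51.0, 51.5 and 53.8 CPM in c-Myc livers, against 41.3, 33.8 and 33.7 CPM in no dox livers. The c-Myc livers were all higher and close together, while Mycl livers had 63.1, 31.5 and 31.4 CPM. The log2 fold change of 0.52 against no dox (SE 0.25, 95% interval -0.03 to 1.07, edgeR adjusted p = 0.162) did not pass, but Psmb5 was called with library totals, with only the 6 libraries compared, without Mycl replicate 1 and with the length trend removed. Psmb6 had 75.5, 75.1 and 89.5 CPM in c-Myc livers, against 102, 83.2 and 84.3 CPM in no dox livers, which overlapped. Psmb7 had 91.3, 89.7 and 102.5 CPM in c-Myc livers, against 120.6, 108.7 and 103.9 CPM in no dox livers, all lower in c-Myc livers by a narrow margin. With the length trend removed, Psmb6 and Psmb7 were called lower. The 3 catalytic genes therefore did not all lie on 1 side of the controls.

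The fitted fold changes of the other activators and of the inhibitor were below 0, though with library totals those of Psme1, Psme4 and Psmf1 were above 0, and none passed the test. Psme1 had 60.4, 59.2 and 70.9 CPM in c-Myc livers, against 81.2, 73.4 and 69.2 CPM in no dox livers (log2 fold change -0.23, edgeR adjusted p = 0.321). Psme2 had 36.6, 37.4 and 47.6 CPM in c-Myc livers, against 58.3, 51.0 and 50.4 CPM in no dox livers (log2 fold change -0.39, edgeR adjusted p = 0.375). The Psme1 groups overlapped and the Psme2 groups did not. Psme4, whose product caps proteasomes in nuclei, had 220, 211.2 and 203.5 CPM in c-Myc livers, against 235, 249.7 and 271.2 CPM in no dox livers (log2 fold change -0.25, edgeR adjusted p = 0.285). Psmf1, which encodes the 20S-binding protein PI31, had 29.1, 29.1 and 28.6 CPM in c-Myc livers, against 34.4, 37.1 and 36.4 CPM in no dox livers (log2 fold change -0.31, edgeR adjusted p = 0.0978). Both were lower in every c-Myc liver. Psme2b had 1.304 to 1.62 CPM in c-Myc livers and 1.15 to 2.47 CPM in no dox livers, with overlap.

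Psma8 had 0.598, 1.57 and 1.80 CPM in c-Myc livers, against 0.657, 1.46 and 0.398 CPM in no dox livers, with overlap at a level of few reads. Psmc3ip had 31, 45 and 12 counts in c-Myc livers, against 6, 6 and 2 counts in no dox livers. In CPM these were 1.68, 2.35 and 0.798 in c-Myc livers and 0.328, 0.380 and 0.159 in no dox livers. All c-Myc livers were higher, at counts near the lower end of what was tested (log2 fold change 2.43, SE 0.47, edgeR adjusted p = 0.00657). Its exons overlap those of Mlx on the opposite strand over 21.2% of their length, and without the strand setting of the counting the reads of both genes cannot be told apart there. Of the 45 tested genes without Psmc3ip, 2 were called higher.

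**Figure D3:**
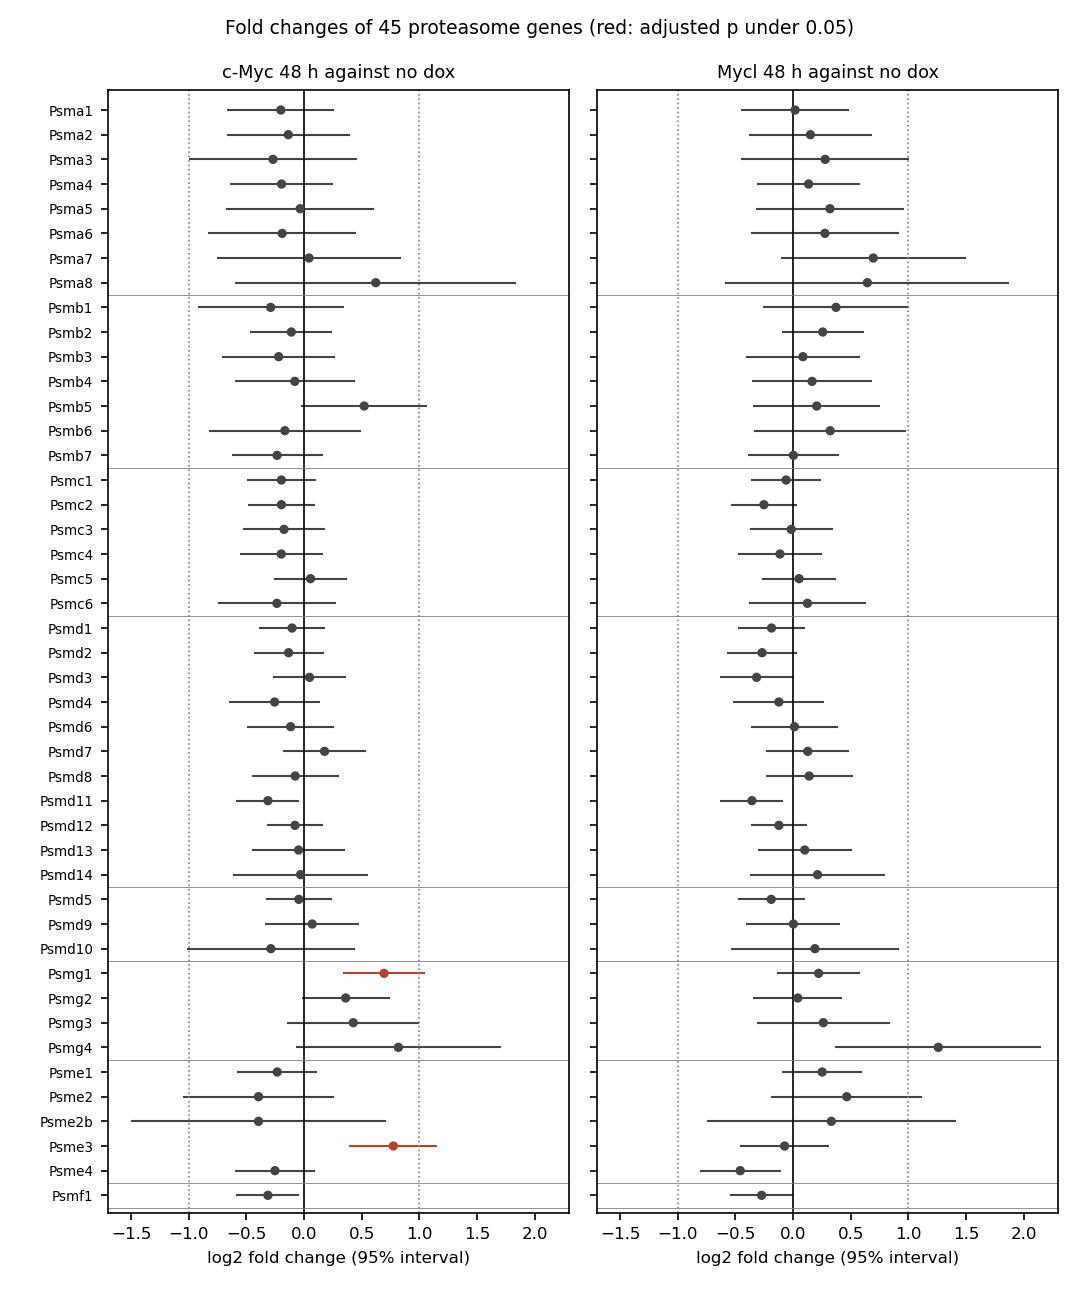
Log2 fold changes with 95% intervals of 45 tested members (without Psmc3ip), for c-Myc against no dox (left) and Mycl against no dox (right), in order of role; dotted lines mark a 2-fold change and red marks an adjusted p under 0.05. Psmg1 and Psme3 are red in the left panel and no gene is red in the right panel.

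In Mycl livers no proteasome gene passed the test. Of 46 tested genes, 0 were called higher and 0 lower by edgeR, beside 2.24% and 0.964% of all tested genes (3.2% in either direction), so a count of 0 is close to the background share. At an unadjusted p under 0.05, 2 were higher and 2 lower, with no share of all tested genes to set beside them. DESeq2 called 1 higher (Psmg4) and 1 lower (Psmd11), beside 744 and 342 of all 12651 tested genes. With limma-voom 0 were called, beside 132 higher and 68 lower over all tested genes. Without Mycl replicate 1, edgeR called 0 in either direction, beside 471 higher and 127 lower over all tested genes. At an unadjusted p under 0.05 that fit had 2 higher and 5 lower, again without a background. The median log2 fold change was 0.13 over the 46 genes, against 0.01 over all tested genes, and -0.14 without Mycl replicate 1. This comparison and that of c-Myc share the no dox livers. For 38 of the 46 genes the 95% interval lay within 2-fold either way, and for 23 within 1.5-fold; without Mycl replicate 1 these were 42 and 40. Groups did not overlap for 2 genes that were higher (Psmc3ip and Psmg4) and 8 that were lower in Mycl livers, beside 13.2% and 16.2% of all tested genes. Without Mycl replicate 1 the groups did not overlap for the same 2 genes that were higher and for 19 that were lower, beside 25.2% and 20.1% of all tested genes.

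The 3 Mycl livers did not move together. The core subunits had a median log2 difference from the no dox mean of 0.50 in replicate 1, -0.17 in replicate 2 and -0.23 in replicate 3. Replicate 1 had the highest value of all 9 livers for 25 of the 31 core genes and for all 14 of the 20S particle, against 3333 of the 12651 tested genes. Replicates 2 and 3 were both below all 3 controls for 22 of the 31, against 3304 of the 12651 tested genes. The values followed the transcript length: for core genes of under 1000 nt the median difference in replicate 1 was 0.80, beside 1.17 over other genes of that length. For 1000 to under 1500 nt it was 0.45 beside 0.60, for 1500 to under 2000 nt it was 0.44 beside 0.29, and for 2000 to under 3000 nt it was 0.13 beside 0.05. Core genes thus lay below other genes of their length in the shortest classes of this liver and above them in the next ones. With the length trend removed from every library, the median log2 fold change over the 46 genes was -0.16. Among the controls, no dox replicate 1 was the highest for 30 of the 31 core genes, against 4581 of the 12651 tested genes.

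Psma7, an alpha subunit, had the highest fitted value among the core genes, with 199.9, 65.1 and 74.9 CPM in Mycl livers, against 84.4, 63.6 and 61.4 CPM in no dox livers (log2 fold change 0.70, edgeR adjusted p = 0.310). Replicate 1 alone lay above the controls. Psmg4 had 16.9, 5.31 and 5.85 CPM in Mycl livers, against 4.11, 4.17 and 3.18 CPM in no dox livers. Every Mycl liver was higher, replicate 1 by the most, and the log2 fold change of 1.26 (SE 0.40) had an edgeR adjusted p of 0.117. Psme4 had 154.8, 217.4 and 177.8 CPM in Mycl livers, against 235, 249.7 and 271.2 CPM in no dox livers (log2 fold change -0.46, edgeR adjusted p = 0.144). Psmd11 had 107.3, 124.1 and 110.6 CPM in Mycl livers, below the 141.6 to 154.5 CPM of no dox livers (log2 fold change -0.36, edgeR adjusted p = 0.144). Both genes were lower in every Mycl liver, replicate 1 included, as was Psmf1 at 26.4, 29.3 and 33.5 CPM (log2 fold change -0.27, edgeR adjusted p = 0.250). Psmc3ip had 9, 12 and 13 counts in Mycl livers against 6, 6 and 2 in no dox livers (log2 fold change 1.304, edgeR adjusted p = 0.197).

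**Figure D4:**
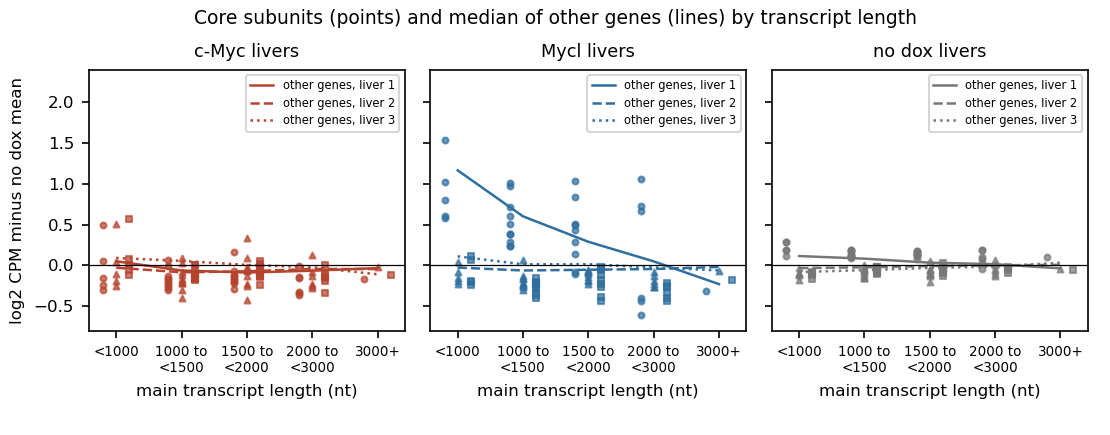
Log2 CPM minus the no dox mean of the 31 core subunits (points; circles, triangles and squares for livers 1, 2 and 3 of each group) and the median of all other tested genes (lines), by length of the main transcript in nt, for c-Myc, Mycl and no dox livers. The line of Mycl replicate 1 falls from 1.17 in the shortest class to -0.23 in the longest, and the other 8 lines stay near 0.

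Set against Mycl livers directly, c-Myc livers had 1 of 46 genes called higher (Psme3) and 0 called lower, beside 4.14% and 2.63% of all tested genes (6.77% in either direction). At an unadjusted p under 0.05, 4 were higher and 4 lower, with no share of all tested genes to set beside them. DESeq2 called 2 higher (Psme3 and Psmg1) and 1 lower (Psme1), beside 998 and 745 of all 12651 tested genes. With limma-voom 1 was called higher and 0 lower, beside 429 and 297. Without Mycl replicate 1, edgeR called 3 higher (Psmb5, Psme3 and Psmg1) and 0 lower, beside 586 and 477 of 12785 tested genes. This comparison and the c-Myc comparison above share the c-Myc livers. Psme3 had 99.6, 112.5 and 74.0 CPM in c-Myc livers, against 51.2, 61.4 and 46.3 CPM in Mycl livers. The groups did not overlap, and the Mycl livers lay around the level of the controls. The log2 fold change was 0.85 (SE 0.17, 95% interval 0.46 to 1.23, edgeR adjusted p = 0.0268). The call was lost without no dox replicate 2, Mycl replicate 3, c-Myc replicate 1 or c-Myc replicate 2 (adjusted p 0.0508, 0.0644, 0.0861 and 0.106), and with only the 6 libraries compared (0.0957). Psmg1, at 24.03, 16.2 and 18.3 CPM in Mycl livers, was below every c-Myc liver without passing (log2 fold change 0.47, edgeR adjusted p = 0.101). Psme1 and Psme2 were lower in every c-Myc liver than in every Mycl liver, which had 108.1, 76.8 and 81.9 CPM of Psme1 and 118.6, 50.9 and 51.4 CPM of Psme2. Their log2 fold changes were -0.49 and -0.86 (edgeR adjusted p = 0.0880 and 0.103). Groups did not overlap for 3 genes that were higher (Psmd3, Psmg1 and Psme3) and 3 that were lower (Psmb2, Psme1 and Psme2), beside 13.7% and 12% of all tested genes. Without Mycl replicate 1 these were 14 and 4, beside 20.8% and 19.9% of all tested genes. The 31 core genes ran from -0.66 (Psmb1) to 0.36 on the log2 scale, with a median of -0.22 beside -0.03 over all tested genes. Psmb1, a beta subunit, had 94.96, 86.2 and 104.7 CPM in c-Myc livers, against 236.9, 101.1 and 114.4 CPM in Mycl livers (edgeR adjusted p = 0.172). The groups overlapped, and Mycl replicate 1 set the mean apart: without it the median over the 46 genes was 0.08.

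The 3 beta subunits that the rule leaves out replace the catalytic subunits in the immunoproteasome, the form that interferon induces. Psmb8, which replaces Psmb5, had 12.01, 11.02 and 12.6 CPM in c-Myc livers, 31.5, 18.9 and 17.6 CPM in Mycl livers and 21.6, 23.2 and 23.5 CPM in no dox livers. All c-Myc livers were lower than all others. Psmb8 fell by 0.93 on the log2 scale against no dox (SE 0.21, edgeR adjusted p = 0.0128) and by 0.93 against Mycl (edgeR adjusted p = 0.0336). Without no dox replicate 2, no dox replicate 3 or c-Myc replicate 2 the adjusted p against no dox was 0.0572, 0.0570 and 0.0704, and with library totals 0.0772. Against Mycl the call was lost without each of no dox replicates 1, 2 and 3 and c-Myc replicates 1 and 2, with adjusted p from 0.0578 to 0.139, with library totals (0.0597) and with only the 6 libraries compared (0.112). Psmb9, which replaces Psmb6, had 7.33, 4.28 and 5.85 CPM in c-Myc livers, 22.2, 10.3 and 8.47 CPM in Mycl livers and 9.74, 13.2 and 11.1 CPM in no dox livers (c-Myc against no dox log2 fold change -0.96, edgeR adjusted p = 0.0767). Psmb10, which replaces Psmb7, had 32.4, 37.1 and 28.6 CPM in c-Myc livers, 38.7, 27.5 and 33.7 CPM in Mycl livers and 26.8, 24.7 and 25.6 CPM in no dox livers (c-Myc against no dox log2 fold change 0.35, edgeR adjusted p = 0.139). The 3 thus differed in direction, with 1 of 3 called lower in each c-Myc comparison.

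Within a liver, the ratio of Psmb8 to Psmb5 reads was 0.236, 0.214 and 0.235 in c-Myc livers, 0.500, 0.599 and 0.561 in Mycl livers and 0.522, 0.685 and 0.696 in no dox livers. The ratio was chosen after the values were seen and was not tested. It lay in a narrow range in c-Myc livers, below all 6 others, and in Mycl replicate 1 it was close to the other Mycl livers, although both genes were high there. The ratio of Psmb9 to Psmb6 was 0.0971, 0.0571 and 0.0654 in c-Myc livers, 0.123, 0.128 and 0.112 in Mycl livers and 0.0956, 0.158 and 0.132 in no dox livers. The c-Myc and no dox livers overlapped in this pair. The ratio of Psmb10 to Psmb7 was 0.355, 0.414 and 0.279 in c-Myc livers, 0.268, 0.289 and 0.356 in Mycl livers and 0.222, 0.227 and 0.247 in no dox livers, so that this pair ran the other way from Psmb8 and Psmb5.

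Interferon genes moved in the direction of Psmb8. Of 26 tested genes of an interferon and antigen presentation list, 17 were called lower in c-Myc livers against no dox, beside 8.88% of all tested genes, with a median log2 fold change of -0.73 beside -0.05 over all tested genes. The count was 8 with library totals, which called 337 of all tested genes lower, and 9 and 11 without no dox replicates 1 and 3. Without no dox replicate 2 or without c-Myc replicate 2, 7 interferon genes were called lower. Over all tested genes 1124 were called lower in the main fit. These were 383, 310 and 334 without no dox replicates 1, 2 and 3, and 300 without c-Myc replicate 2. In Mycl livers 1 was called lower, beside 0.964% of all tested genes (Rsad2, log2 fold change -0.64, edgeR adjusted p = 0.0353). Without Mycl replicate 1 the count was 2, beside 127 of all tested genes. The Rsad2 call was lost without any 1 of the no dox livers, Mycl replicates 2 and 3 or c-Myc replicate 1 (adjusted p 0.0600 to 0.172), with library totals (0.0841), with upper-quartile factors (0.0521), with only the 6 libraries compared (0.0737) and with the replicate block (0.0617). Between c-Myc and Mycl livers 7 were called lower in c-Myc livers, beside 2.63% of all tested genes. That count rested on single libraries and settings: it was 0 with only the 6 libraries compared or without c-Myc replicate 1 or 2, and 1 with library totals, without any 1 no dox liver or without Mycl replicate 3. It was 3 with the replicate block and 11 without Mycl replicate 1. Over all tested genes 333 were called lower in the main fit. These were 39 with the 6 libraries, and 27 and 32 without c-Myc replicates 1 and 2. They were 223 with library totals, 127 to 134 without a no dox liver and 190 without Mycl replicate 3. With the replicate block they were 278, and without Mycl replicate 1 they were 477. Markers of other cells differed as well. Over all tested genes 11.8% were called higher and 8.88% lower in c-Myc livers against no dox. For Mycl against no dox these shares were 2.24% and 0.964%. Summed Kupffer cell markers (8 genes) were 218.6 to 316.1 CPM in c-Myc livers, 348.7 to 481.9 CPM in Mycl livers and 357.9 to 420.1 CPM in no dox livers. Of these 8 genes, 2 were called lower in c-Myc livers against no dox and 2 against Mycl. In Mycl livers against no dox, 1 of 8 was called higher. Summed T, NK and B cell markers were 2.66 to 4.59 CPM in c-Myc livers, 4.50 to 6.87 CPM in Mycl livers and 5.04 to 7.97 CPM in no dox livers. Of 3 tested genes, 1 was called lower in c-Myc livers against no dox. Summed neutrophil and monocyte markers were 17.2 to 29.5 CPM in c-Myc livers, 23.3 to 30.7 CPM in Mycl livers and 7.65 to 10.2 CPM in no dox livers. Of 6 tested genes, 2 were called higher in c-Myc livers and 2 in Mycl livers, and Ly6g was at 0 in Mycl and no dox livers. Summed erythroid markers were 51.7 to 104.5 CPM in c-Myc livers, 150.6 to 542.1 CPM in Mycl livers and 227.8 to 300.7 CPM in no dox livers. In c-Myc livers 6 of 6 tested genes were called lower against no dox and 4 of 6 against Mycl. Summed endothelial markers were 214.9 to 277.2 CPM in c-Myc livers, 212.3 to 342.7 CPM in Mycl livers and 315.3 to 403.9 CPM in no dox livers. Summed stellate cell markers were 304 to 350.2 CPM in c-Myc livers, 267.8 to 401.3 CPM in Mycl livers and 356.8 to 443 CPM in no dox livers. Both sums were lower in every c-Myc liver than in every control, with 0 of 6 endothelial genes called and 1 of 6 stellate genes called in each direction. Summed cholangiocyte markers overlapped the controls. The part of these cells in the Psmb8 and interferon results was not tested.

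Genes that work with the proteasome but lie outside the symbol rule were called at about the background share in c-Myc livers. Of 22 partner genes, 2 were called higher and 1 lower in c-Myc livers, beside 11.8% and 8.88% of all tested genes. These counts are too small to be told apart from the background. The median log2 fold change was -0.18 beside -0.05 over all tested genes. Uchl5, a deubiquitinase of the 19S particle, averaged 20.8 ± 2.69 CPM in c-Myc livers and 13.99 ± 0.759 CPM in no dox livers (SD, n = 3 each; log2 fold change 0.57, edgeR adjusted p = 0.0195). Ubqln4, a ubiquilin that carries substrates to the proteasome, averaged 65.7 ± 16.5 CPM in c-Myc livers, 32.9 ± 4.42 CPM in Mycl livers and 35.7 ± 2.46 CPM in no dox livers. It rose by 0.88 on the log2 scale against no dox (edgeR adjusted p = 0.0108) and by 0.99 against Mycl (edgeR adjusted p = 0.0231), where the call was lost without c-Myc replicate 1 (0.0831) or c-Myc replicate 2 (0.0954) and with only the 6 libraries compared (0.0831). Ddi2, the protease that activates NRF1, averaged 187.5 ± 15.4 CPM in c-Myc livers and 290.5 ± 17.9 CPM in no dox livers (SD, n = 3 each; log2 fold change -0.63, edgeR adjusted p = 0.0174). The calls of Uchl5 and Ddi2 each depended on single libraries: leaving out no dox replicate 2, no dox replicate 3, c-Myc replicate 1 or c-Myc replicate 2 gave Uchl5 an adjusted p of 0.0534 to 0.0650. For Ddi2 these 4 and no dox replicate 1 gave 0.0508 to 0.0966, and library totals gave 0.170.

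Nfe2l1 itself had 123.1, 97.0 and 100.9 CPM in c-Myc livers, 63.7, 106.4 and 117.3 CPM in Mycl livers and 126, 128.4 and 129.2 CPM in no dox livers, lower in each induced liver without a call. Pomp, the maturation factor of the 20S particle, had 69.9, 64.6 and 73.7 CPM in c-Myc livers, 155.1, 70.2 and 66.8 CPM in Mycl livers and 89.9, 81.4 and 74.7 CPM in no dox livers. Its values followed those of the 20S subunits, high in Mycl replicate 1 and below the controls elsewhere. With library totals, 31 of the 46 members' fold changes of c-Myc against no dox changed sign. Values of Nfe2l1 and Pomp under that scaling are not given here, so their direction in c-Myc livers is stated for TMM scaling only. In Mycl livers 0 of the 22 partners were called in either direction by edgeR, DESeq2 or limma-voom, with 0 higher and 8 lower at an unadjusted p under 0.05. The share of all tested genes at that unadjusted threshold is not given here, so the 8 cannot be set against a background. Of 10 genes of the COP9 signalosome, a complex built like the 19S lid, 1 was called higher in c-Myc livers (Cops7a, 59.8 ± 3.06 CPM against 43.1 ± 4.01 CPM in no dox livers; log2 fold change 0.47, edgeR adjusted p = 0.0280). That share is close to the 11.8% of all tested genes, and the list median was 0.02. With library totals 4 were called higher, beside 25.1% of all tested genes. The adjusted p of Cops7a was 0.0741 to 0.0928 when no dox replicate 2, no dox replicate 3, c-Myc replicate 1 or c-Myc replicate 2 was left out.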

How the data were processed

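Per the labels' protocols, RNA of 9 mouse livers was made into directional libraries. The deposited values are raw counts, whole numbers of reads for each gene, which the authors did not normalise. The submitters' processing notes name cutadapt (3.0), STAR (2.7.8a), HTSeq (0.11.2), DESeq2 (1.30.0) and mm10, and how strand was treated in counting is not given in the sources used here. GENCODE M21 on GRCm38 gave symbols, gene positions and transcript lengths, and RefSeq gave promoters.

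The counts were fitted with edgeR (4.0.16, in R 4.3.3). filterByExpr with a minimum count of 10 left 12651 genes, and TMM scaled the library sizes. A single quasi-likelihood fit (glmQLFit, glmQLFTest) over the 9 libraries, with 6 residual degrees of freedom, gave all 3 comparisons. Benjamini-Hochberg adjustment ran over all tested genes, with a call at an adjusted p under 0.05. Counts at an unadjusted p under 0.05 are given without the share of all tested genes, so they have no background. SE is the absolute log2 fold change over the square root of F. RPKM used the main annotated transcript, so a gene whose annotated transcript is longer than the one expressed is understated.

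Counting error is small for the core genes, and 3 livers a group limit the precision. No 2 libraries of a group were alike within sampling noise. The alternatives were other scalings and filters, DESeq2 1.42.0, limma-voom (limma 3.58.1), leaving out libraries, a replicate block and removal of the transcript length trend. Named genes were the called members, the lowest and highest of each comparison, the Psme and Psmg genes, Psmf1, Psmb8, Psmb9, Psmb10, Pomp and Nfe2l1; others are named as seen in the data. Members and lists were chosen with earlier results of these data known. Psmc3ip was set apart from the ATPases. The procedure was tested on simulated data. Results on some genes are not reported here.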

Additional observations from a re-analysis of the deposited data

Results flagged for a closer look

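For 4 results, the direct contrast of the induced groups in the edgeR fit, with Benjamini-Hochberg adjustment, is given here. It measures the difference between the c-Myc and Mycl responses and was run on all tested genes. The single genes given are those called in it among the members, partners and immunoproteasome genes, so their passing is no separate test. The log2 fold change of c-Myc against Mycl livers was 0.85 for Psme3 (adjusted p = 0.0268), higher in 3 of 3 c-Myc livers than in any Mycl liver. For Ubqln4 it was 0.99 (adjusted p = 0.0231) and for Psmb8 it was -0.93 (adjusted p = 0.0336). The calls of Psme3, Ubqln4 and Psmb8 were each lost with only the 6 libraries compared and without c-Myc replicate 1 or 2. The Psme3 call was also lost without no dox replicate 2 or Mycl replicate 3. That of Psmb8 was also lost with library totals and without any 1 no dox liver. Of 26 tested interferon genes, 7 were called lower in c-Myc livers than in Mycl livers, beside 2.63% of all tested genes. That count was 0 with only the 6 libraries compared or without c-Myc replicate 1 or 2, 1 with library totals, without any 1 no dox liver or without Mycl replicate 3, and 11 without Mycl replicate 1. Over all tested genes 333 were called lower in the main fit. These were 39 with the 6 libraries, and 27 and 32 without c-Myc replicates 1 and 2. The lines that carry the transgenes differ together with the transgene, so the line and the factor cannot be told apart.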

How the results depend on the processing

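For c-Myc against no dox, the count of members called higher was 3. It was 5 with library totals and 5 with only the 6 libraries compared, and 2 to 7 when single libraries were left out. The count called lower was 0, and 6 with the transcript length trend removed (Psmb3, Psmb6, Psmb7, Psmd11, Psme2 and Psmf1). Over all 12651 tested genes that setting called 1937 lower, where the main fit called 1124. The members' median of -0.13 became 0.24 with library totals and -0.20 with the length trend removed, and ran from -0.13 to -0.0096 when single libraries were left out, the last without no dox replicate 1. For Mycl against no dox, DESeq2 called 1 higher and 1 lower where edgeR called 0, and leaving out single libraries gave 0 to 1 higher. The median of 0.13 became -0.16 with the length trend removed and ran from -0.14 to 0.29 when single libraries were left out. For c-Myc against Mycl, the count called higher was 1, and 3 with library totals, 2 with DESeq2, 0 with the 6 libraries, 3 with the length trend removed and 0 to 3 when single libraries were left out. The count called lower was 0, and 1 with DESeq2 and 1 with the length trend removed, beside 745 and 525 of all tested genes. Library totals moved the median of all tested genes by over 0.1 in each comparison, and with them 31 of the 46 members' fold changes of c-Myc against no dox changed sign, 6 of Mycl against no dox and 10 of c-Myc against Mycl. Among them, the c-Myc values of genes named above became 0.12 for Psme1, 0.11 for Psme4, 0.0487 for Psmf1 and 0.0488 for Psmd11. The cause of these changes was not tested. Over all tested genes, c-Myc against Mycl gave 524 higher and 333 lower calls, and 35 and 39 with only the 6 libraries compared; Mycl against no dox gave 283 and 122, and 744 and 342 with DESeq2, and 132 and 68 with limma-voom. Of 738 alternative values of single genes, 644 kept direction and side of the threshold.

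The labels number the livers 1 to 3 in each group, but same-numbered livers did not deviate together in every pair. Over genes, the correlation was 0.31 for Mycl replicate 1 and no dox replicate 1, and -0.19 to 0.09 for the other 8 pairs. Values for livers of different numbers are not given, so these correlations cannot decide whether the numbers pair the livers. With the replicate block the counts of members called higher were 3, 0 and 1 for c-Myc against no dox, Mycl against no dox and c-Myc against Mycl, with medians of -0.11, 0.10 and -0.12.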
